A study of Mus musculus with 20 samples.

Results

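The cytochrome P450 genes of families 1, 2 and 3 encode the microsomal oxidases best known for the metabolism of drugs, steroids and fatty acids. Members were taken by symbol, as every gene named Cyp1, Cyp2 or Cyp3 followed by a subfamily letter and a number, except Cyp2b9, Cyp2b13 and Cyp2d9. This gave 56 genes of 40440 distinct entries in the count table, and the 44 with a mean of at least 1 CPM (reads of a gene relative to the size of its library, scaled by the trimmed mean of M-values, TMM) in at least 1 of the 4 groups are described. Just inside that limit lay Cyp1a1, at 1.27 CPM in its highest group. Just outside it lay Cyp2g1 at 0.974 CPM, followed by Cyp3a57 at 0.772 CPM and Cyp2j8 at 0.529 CPM.

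Male C57BL/6J mice (stock #000664 of the Jackson Laboratory) were kept on regular chow until an operation at 8-9 months of age, and RNA was later taken from liver and from subcutaneous white fat (SAT). In the VAT removed groups the epididymal visceral adipose tissue (VAT) pads were taken out, and in the sham groups the abdomen was opened and no pad was taken. All mice of the 4 groups (sham liver, VAT removed liver, sham SAT, VAT removed SAT) ate a high-fat diet after the operation, so no group shows a chow-fed state. Each group had 5 libraries of total RNA depleted of ribosomal RNA, and the labels do not say whether liver and SAT libraries of equal number came from 1 mouse.

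P450 enzymes take electrons from the reductase encoded by Por and hold a heme group whose synthesis starts with the product of Alas1. In liver, many P450 genes are induced through the nuclear receptors CAR and PXR or through the aryl hydrocarbon receptor, many are enriched in hepatocytes around the central vein, and a number are sex-biased through the pattern of growth hormone release. Cyp2c40 and Cyp2c69 are known as female-biased genes of mouse liver, and all mice here were male.

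Total counts ran from 20307159 to 37572706 in the liver libraries and from 27411596 to 43618452 in the SAT libraries. Alb, the serum albumin gene, lay between 32476 and 53580 CPM in liver and at most at 31.1 CPM in SAT, and Adipoq, the adiponectin gene, lay between 983.4 and 2356 CPM in SAT and at most at 0.352 CPM in liver, so each library held the defining marker of its labelled tissue. Sham SAT libraries 3 and 4 stood apart, with 537.6 and 549.0 CPM summed over 6 lymphocyte genes against at most 10.5 CPM in the other SAT libraries, and with 10910 and 9481 CPM summed over 6 adipocyte genes against 14820 to 20940 CPM. Results that rest on these libraries are given with and without them. VAT removed liver 3 also stood apart in several P450 genes. It had the fewest counts of all libraries (20307159) and the lowest Alb of the liver libraries (32476 CPM).

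Many of the 44 described genes occur in arrays of close relatives. Others do not, such as Cyp1b1 on chromosome 17 and Cyp2u1 on chromosome 3, each the only described gene of its chromosome. Cyp2c40 (chr19:39767071-39812814, minus strand, GRCm38), Cyp2c69 (chr19:39842814-39886799), Cyp2c68 (chr19:39688834-39741054) and Cyp2c67 (chr19:39608842-39649051) are neighbours on chromosome 19. Cyp2a22 (chr7:26931631-26939384) and Cyp2a12 (chr7:27029081-27037375) lie in the Cyp2a region of chromosome 7. The 250 bases before the RefSeq start of these 6 genes (GRCm38.p6, each on the strand of its gene) are shown because the first 3 and Cyp2a22 had the smallest p-values among the genes with higher liver levels after VAT removal, while Cyp2c67 and Cyp2a12 are close relatives that did not share the difference. Capitals mark TTCNNNGAA (the palindrome bound by STAT5), GTTAAT (an HNF1 half-site), ATCAAT (the core bound by HNF6) and TATAAA, each searched on both strands.
Cyp2c69: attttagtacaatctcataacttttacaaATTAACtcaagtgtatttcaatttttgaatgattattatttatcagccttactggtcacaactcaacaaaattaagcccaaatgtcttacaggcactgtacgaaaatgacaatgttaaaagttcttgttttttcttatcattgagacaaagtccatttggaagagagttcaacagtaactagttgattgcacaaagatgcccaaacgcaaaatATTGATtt
Cyp2c40: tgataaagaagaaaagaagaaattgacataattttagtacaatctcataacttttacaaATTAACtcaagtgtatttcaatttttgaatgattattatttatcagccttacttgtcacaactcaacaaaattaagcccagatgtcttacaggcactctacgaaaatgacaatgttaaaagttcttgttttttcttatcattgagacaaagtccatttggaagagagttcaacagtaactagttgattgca
Cyp2c68: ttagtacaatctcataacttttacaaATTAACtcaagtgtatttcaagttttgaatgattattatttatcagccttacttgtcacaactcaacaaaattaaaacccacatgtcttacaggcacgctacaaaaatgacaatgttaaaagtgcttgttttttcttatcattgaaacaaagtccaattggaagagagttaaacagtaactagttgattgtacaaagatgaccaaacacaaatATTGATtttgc
Cyp2c67: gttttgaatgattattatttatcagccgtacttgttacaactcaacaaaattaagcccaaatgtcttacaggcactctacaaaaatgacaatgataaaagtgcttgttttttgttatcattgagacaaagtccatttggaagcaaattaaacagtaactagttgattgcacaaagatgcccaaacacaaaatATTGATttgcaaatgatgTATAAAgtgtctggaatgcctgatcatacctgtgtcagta
Cyp2a22: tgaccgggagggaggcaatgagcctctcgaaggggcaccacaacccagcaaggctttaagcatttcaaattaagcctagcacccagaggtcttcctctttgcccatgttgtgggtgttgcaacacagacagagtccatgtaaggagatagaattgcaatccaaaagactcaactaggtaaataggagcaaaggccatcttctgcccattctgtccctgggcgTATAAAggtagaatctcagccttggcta
Cyp2a12: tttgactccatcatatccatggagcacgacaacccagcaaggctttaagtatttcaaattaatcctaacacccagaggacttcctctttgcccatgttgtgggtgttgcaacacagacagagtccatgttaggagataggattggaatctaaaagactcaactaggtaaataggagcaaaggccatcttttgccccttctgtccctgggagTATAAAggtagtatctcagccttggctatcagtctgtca

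The windows lie at chr19:39886770-39887019 (Cyp2c69), chr19:39812815-39813064 (Cyp2c40), chr19:39741102-39741351 (Cyp2c68), chr19:39649043-39649292 (Cyp2c67) and chr7:26939387-26939636 (Cyp2a22), all on the minus strand, and at chr7:27028840-27029089 on the plus strand (Cyp2a12). In global alignments of these windows, Cyp2c69 and Cyp2c68 shared 92.8% of bases, Cyp2c69 and Cyp2c40 86.8%, Cyp2c40 and Cyp2c68 83.2%, and Cyp2c69 and Cyp2c67 74.8%. Cyp2a22 and Cyp2a12 shared 86.8%. These are shares of all 250 bases. Where 2 windows are offset against each other, the ends without a counterpart lower the share, as for Cyp2c67. The HNF1 half-site, read as ATTAAC, began 221 bases before the start in Cyp2c69, 191 in Cyp2c40 and 224 in Cyp2c68. The windows are counted from each gene's own annotated start and are offset against each other: that of Cyp2c67 opens at a stretch that follows the half-site in Cyp2c68, so the matching place lies outside it. The HNF6 core, read as ATTGAT, began 8 bases before the start in Cyp2c69, 11 in Cyp2c68 and 58 in Cyp2c67. The window of Cyp2c40 ends before the matching place, so nothing is known of this core there. TATAAA was in the windows of Cyp2c67, Cyp2a22 and Cyp2a12. In Cyp2c67 it follows ATTGAT, and the windows of Cyp2c69, Cyp2c68 and Cyp2c40 end before the matching place, so nothing is known there of these letters in the 3 genes.

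Over the 38 described genes with a RefSeq window, TATAAA occurred in 20, against 12.4% of all 32851 windows of that length. GTTAAT occurred in 6 of the 38 (6.43% of all windows), ATCAAT in 8 (6.72%), AGGTCA, a half-site of nuclear receptors, in 9 (14.0%), and GCGTG, the core bound by the aryl hydrocarbon receptor, in 6 (28.2%). TTCNNNGAA occurred in 0 of the 38 and in 7.02% of all windows. These are matches of letters on either strand, and none was tested as a binding site.

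The transcripts of these relatives are alike as well, which bears on how reads could be assigned. Of all stretches of 50 bases in the longest coding transcript, 72.1% in Cyp2c40 also occur in another gene, most often Cyp2c69 (42.1%). The share was 54.8% for Cyp2c69, 52.8% for Cyp2c67, 43.3% for Cyp2c68, 40.8% for Cyp2a5, 38.0% for Cyp2a4, 40.5% for Cyp2d10, 37.2% for Cyp2d11 and 25.7% for Cyp2a22. The handling of reads that map to more than 1 place is unknown here, so the values of these genes are uncertain between relatives. Cyp1b1, Cyp2f2, Cyp2r1, Cyp2s1 and Cyp2ab1 shared 0 such stretches with another gene.

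The comparison of VAT removed with sham livers asks how the level of each P450 mRNA differs after loss of the visceral pads. Cyp2c40 and Cyp2c69 averaged more in VAT removed livers, with no overlap between the groups, and Cyp2f2 averaged less, also with no overlap. None of the 43 described genes tested had an edgeR adjusted p under 0.05, higher or lower, and over all 17078 genes tested the share called was 0% in each direction. DESeq2 called 4 of the 43 higher (Cyp2c40, Cyp2c69, Cyp2c68 and Cyp2a22) and 0 lower, where it called 0.525% of all genes higher and 0.689% lower, and limma-voom called 0. At an unadjusted p under 0.05 in edgeR, 6 of the 43 were higher and 4 lower, beside 4.68% and 5.22% of all genes. Groups did not overlap for 2 of the 43 in the higher direction and 1 in the lower, beside 0.937% and 1.5% of all genes. In these bulk samples fewer cells of a type and less RNA per cell cannot be told apart.

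**Figure D1:**
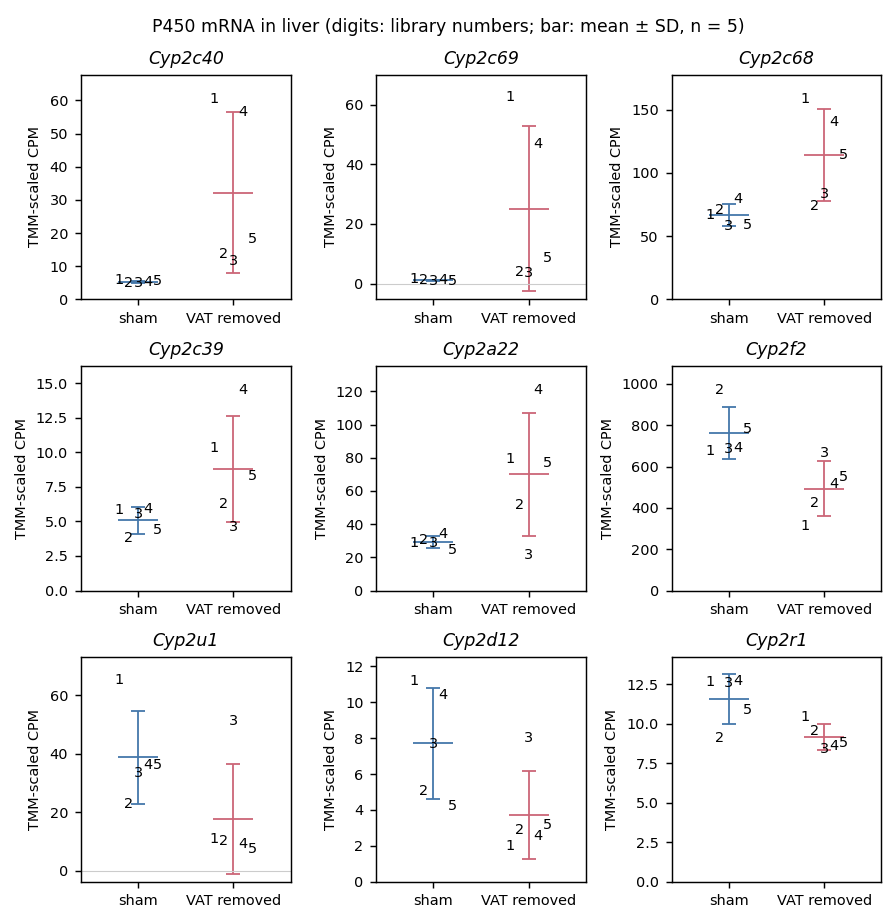
TMM-scaled CPM (vertical axes, from 0) of 9 P450 genes in sham and VAT removed liver, with digits for library numbers and bars for the mean ± SD of 5 libraries. Cyp2c40 and Cyp2c69 lie above every sham library in all 5 VAT removed livers, highest in libraries 1 and 4, and VAT removed liver 3 lies apart from its group in Cyp2u1 and Cyp2d12.

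Cyp2c40, an arachidonic acid hydroxylase, was at 5.77, 4.95, 4.93, 5.33 and 5.42 CPM in sham livers 1 to 5 and at 60.5, 13.8, 11.7, 56.5 and 18.1 CPM in VAT removed livers 1 to 5. All 5 VAT removed livers lay above all sham livers, and libraries 1 and 4 were far above the other 3. The means were 5.28 ± 0.351 CPM (SD, n = 5) and 32.1 ± 24.2 CPM. The log2 difference was 2.60 ± 0.48 (SE) with an edgeR adjusted p of 0.211, and the adjusted p ranged from 0.00013 (DESeq2) to 0.476 over the alternative settings.

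Cyp2c69, its closest neighbour in sequence, was at 1.44, 1.09, 0.922, 1.04 and 0.899 CPM in sham livers and at 62.7, 4.02, 3.43, 46.7 and 8.70 CPM in VAT removed livers. It took the same order of libraries as Cyp2c40, with libraries 1 and 4 highest and library 3 lowest. On the log2 scale the difference was 4.54 ± 0.90, with an edgeR adjusted p of 0.221 and a range over the alternatives from 2.28e-05 to 0.476. Since the transcripts share many stretches, the 2 genes are not independent measurements.

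Other cell markers were read beside these 2 genes. Summed over 5 macrophage and Kupffer cell genes, VAT removed livers 1 and 4 had 411.7 and 287.9 CPM, against 137.2 to 256.6 CPM in sham livers and 181.3 to 230.1 CPM in the other VAT removed livers. The sum of 4 endothelial genes was 257.8 to 307.9 CPM in sham livers and 266.4 to 385.1 CPM in VAT removed livers. All 4 of them lay above 0, and 1 was higher at an unadjusted p under 0.05 in edgeR, beside 4.68% of all genes. Of 6 lymphocyte genes 3 were higher at that threshold, beside the same 4.68%, with low sums of 5.02 to 12.3 CPM in sham and 7.53 to 18.9 CPM in VAT removed livers. Their part in the P450 values was not tested.

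Of 6 P450 genes known as female-biased, 5 lay above 0 and 1 below, where 8913 of all 17078 genes tested lay above 0. At an unadjusted p under 0.05 in edgeR, 2 were higher (Cyp2c40 and Cyp2c69) and 0 lower, beside 4.68% and 5.22% of all genes. These 2 are the pair that share sequence and are not independent. Cyp3a16 averaged 4.99 ± 1.71 CPM in VAT removed livers against 4.83 ± 1.66 CPM in sham, and Cyp3a44 3.49 ± 1.39 CPM against 3.58 ± 1.54 CPM. Cyp2g1, at 0.974 ± 0.605 CPM against 0.475 ± 0.309 CPM, lies below the limit for description.

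Cyp2c68 was at 66.5, 70.2, 57.9, 79.3 and 58.8 CPM in sham livers and at 158.6, 73.6, 83.3, 140.0 and 114.2 CPM in VAT removed livers. Only VAT removed liver 2 lay within the sham range. Its log2 difference was 0.78 ± 0.20 (edgeR adjusted p = 0.261, range over the alternatives 0.0255 to 0.561). Cyp2c67 was between 85.7 and 99.0 CPM in sham livers and between 77.6 and 92.0 CPM in VAT removed livers 1, 2, 4 and 5, with 158.4 CPM in library 3. The 4 neighbouring genes thus had their highest values in different libraries, library 1 for Cyp2c40, Cyp2c69 and Cyp2c68 and library 3 for Cyp2c67.

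Cyp2c39, a retinoic acid hydroxylase, was at 5.84, 3.78, 5.53, 5.93 and 4.35 CPM in sham livers and at 10.3, 6.28, 4.59, 14.5 and 8.28 CPM in VAT removed livers. Library 3 alone of the VAT removed livers lay within the sham range. The log2 difference was 0.79 ± 0.27 (edgeR adjusted p = 0.389). Cyp2c29, a gene induced through CAR, was at 287.8, 123.5, 240.2, 295.0 and 125.0 CPM in sham livers and at 530.4, 157.8, 464.4, 449.0 and 230.2 CPM in VAT removed livers. VAT removed livers 2 and 5 lay within the sham range, and the log2 difference was 0.77 ± 0.38 (adjusted p = 0.545). Of the 13 described Cyp2c genes, 11 had a log2 difference above 0 and 2 below, with a median of 0.63, against medians of 0.0044 over the 43 described genes and 0.012 over all genes tested. Over all genes, 8913 of 17078 lay above 0. Several of the 13, such as Cyp2c40, Cyp2c69, Cyp2c67 and Cyp2c68, share stretches of sequence, so they are not independent measurements. Summed over the subfamily, the Cyp2c level was 775.9 to 1301 CPM in sham livers and 738.0 to 1962 CPM in VAT removed livers.

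Cyp2a22 was at 28.6, 30.4, 28.4, 34.3 and 24.4 CPM in sham livers and at 79.3, 51.5, 21.2, 120.9 and 77.1 CPM in VAT removed livers. VAT removed liver 3 lay below all sham livers and the other 4 above them. The log2 difference was 1.26 ± 0.36 (edgeR adjusted p = 0.309, range over the alternatives 0.0216 to 0.622). Cyp2a12, a steroid hydroxylase gene whose promoter window is 86.8% identical to that of Cyp2a22, was between 405.4 and 503.6 CPM in sham and between 344.5 and 427.2 CPM in VAT removed livers, a log2 difference of -0.16 ± 0.09.

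Cyp2a4, a female-biased steroid hydroxylase gene, and Cyp2a5, which encodes coumarin hydroxylase, varied within the groups more than between them. Cyp2a4 was at 14.1, 289.6, 26.0, 19.3 and 90.04 CPM in sham livers and at 80.2, 71.2, 14.6, 186.3 and 185.4 CPM in VAT removed livers. Cyp2a5 was at 307.4, 956.5, 454.3, 378.8 and 487.7 CPM in sham and at 376.0, 104.8, 324.7, 591.7 and 423.7 CPM in VAT removed livers. Sham liver 2 was highest in both genes. The log2 differences were 0.29 ± 0.91 and -0.51 ± 0.43. Cyp2a4 and Cyp2a5 windows were 98.0% identical.

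Among lower values, Cyp2f2, a naphthalene oxidase of lung and liver, was at 674.5, 971.4, 684.5, 688.5 and 783.9 CPM in sham livers and at 312.7, 421.9, 663.9, 515.1 and 549.4 CPM in VAT removed livers. The groups did not overlap, though VAT removed liver 3 came close to the lowest sham value. The log2 difference was -0.63 ± 0.19 (edgeR adjusted p = 0.309, range over the alternatives 0.0684 to 0.702). Cyp2r1, a vitamin D hydroxylase, was at 12.6, 9.10, 12.6, 12.7 and 10.9 CPM in sham and at 10.4, 9.55, 8.37, 8.61 and 8.78 CPM in VAT removed livers. Sham liver 2 lay among the VAT removed livers, and the log2 difference was -0.34 ± 0.11 (adjusted p = 0.369).

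Cyp2u1, a hydroxylase of long-chain fatty acids, was at 65.3, 22.9, 33.3, 36.3 and 36.1 CPM in sham livers and at 10.8, 10.1, 51.1, 9.18 and 7.37 CPM in VAT removed livers. Library 3 alone of the VAT removed livers lay within the sham range, and the other 4 lay below it. The log2 difference was -1.15 ± 0.55 (edgeR adjusted p = 0.534) with all libraries and -2.05 ± 0.28 without library 3.

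Cyp2d12 averaged 3.73 ± 2.44 CPM in VAT removed livers against 7.71 ± 3.10 CPM in sham, with 8.02 CPM in VAT removed liver 3 and 2.01 to 3.17 CPM in the other 4. Its log2 difference was -1.07 ± 0.40 (adjusted p = 0.426). Cyp2d11 was at 16.5, 15.3, 14.7, 18.7 and 10.7 CPM in sham and at 10.3, 10.2, 14.6, 10.6 and 13.2 CPM in VAT removed livers. Only sham liver 5 lay among the VAT removed values, and the log2 difference was -0.37 ± 0.16 (adjusted p = 0.472). Of the 7 described Cyp2d genes, 5 had a log2 difference below 0 and 2 above, with a median of -0.23. Over all genes, 8165 of 17078 lay below 0. Several of the 7, such as Cyp2d10, Cyp2d11 and Cyp2d12, share stretches of sequence with each other and with Cyp2d9, which the rule left out. They are not independent measurements. Cyp2d26, the most abundant of the subfamily per kilobase, averaged 849.7 ± 154.3 CPM against 825.1 ± 114.7 CPM, and Cyp2d22 245.6 ± 21.9 CPM against 244.0 ± 27.9 CPM.

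Cyp2s1, a P450 gene known from epithelia, was at 0.281, 0.773, 0.638, 0.852 and 0.319 CPM in sham livers and at 0.607, 1.26, 0.706, 1.31 and 1.36 CPM in VAT removed livers. Libraries 1 and 3 of the VAT removed livers lay within the sham range. This gave a log2 difference of 0.88 ± 0.37 (edgeR adjusted p = 0.473). Cyp2j6, an arachidonic acid epoxygenase, was at 57.4 to 64.4 CPM in sham and at 41.9, 56.7, 57.8, 55.9 and 59.3 CPM in VAT removed livers, lowest in library 1, a log2 difference of -0.15 ± 0.09.

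Without VAT removed liver 3, edgeR called 2 of the 43 described genes higher (Cyp2c40 at 2.81 ± 0.43 and Cyp2a22 at 1.49 ± 0.21, adjusted p of 0.0456 and 0.0262) and 1 lower (Cyp2u1, adjusted p of 0.0262), beside 0.0919% of all genes higher and 0.213% lower. The same library was lowest of its group in Cyp2b10 (0.101 CPM), Cyp2a4 (14.6 CPM) and Cyp3a11 (406.1 CPM), and highest in Cyp2c54 (89.5 CPM) and Cyp2c23 (287.7 CPM). Male-biased liver genes outside the 3 families, 8 in all, summed to 1808 CPM in that library, to 78.0 to 496.0 CPM in the other VAT removed livers and to 1759 to 2535 CPM in sham livers. Mup20, at a mean of 1900 CPM in sham livers, made up most of the sham sums. The mean of log2 (CPM + 0.5) over the 8 genes was 6.126 in that library, above the 4.586 to 4.905 of sham livers. It was 1.694 to 3.179 in the other VAT removed livers. Female-biased genes outside the families, 6 in all, summed to 26.9 CPM in that library, 99.4 to 684.1 CPM in the other 4 and 29.0 to 61.7 CPM in sham livers. The part of these genes in the P450 values was not tested.

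**Figure D2:**
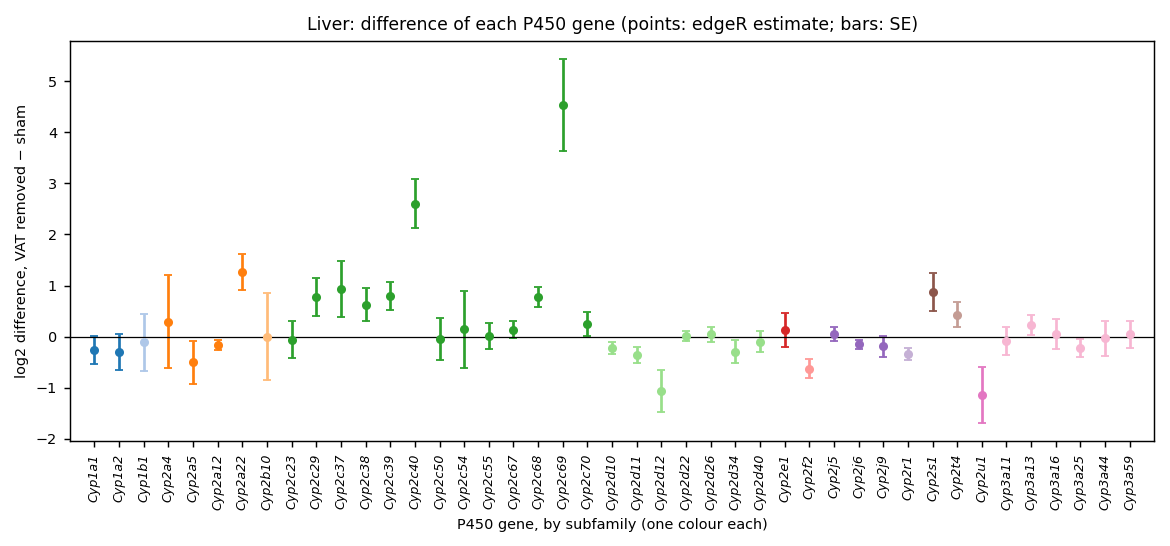
edgeR log2 difference of VAT removed minus sham liver (vertical axis) with its SE for the 43 described P450 genes tested, ordered and coloured by subfamily. Of the 13 Cyp2c genes, 11 lie above 0, Cyp2c69 highest at 4.54, and 5 of the 7 Cyp2d genes lie below 0. Several genes of each subfamily share sequence. Of all 17078 genes tested, 8913 lay above 0 and 8165 below.

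The groups also overlapped for other genes known for induction by foreign compounds. Cyp1a1, a target of the aryl hydrocarbon receptor, was at 0.985 to 1.56 CPM in sham and 0.545 to 1.58 CPM in VAT removed livers (log2 difference -0.27 ± 0.27). Cyp1a2, a second target, was at 34.7 CPM in VAT removed liver 2 and between 108.4 and 194.3 CPM in all other livers (-0.30 ± 0.36). Cyp1b1, an estradiol hydroxylase, was at 1.62, 5.67, 1.99, 1.42 and 5.02 CPM in sham and at 0.831, 5.02, 2.47, 1.34 and 4.82 CPM in VAT removed livers (-0.11 ± 0.56). Each of the 3 genes lay below 0 with overlapping groups. Cyp2b10, the classic target of CAR, was at 0.809, 5.96, 1.21, 2.24 and 7.89 CPM in sham and at 7.03, 1.32, 0.101, 7.45 and 2.18 CPM in VAT removed livers. Both groups spanned low and high values, and the log2 difference was -0.0055 ± 0.85. Cyp3a11, the main target of PXR, averaged 799.9 ± 240.5 CPM in VAT removed livers against 849.3 ± 327.2 CPM in sham, and the 6 Cyp3a genes had a median log2 difference of 0.0065. Of 8 P450 genes known to respond to CAR or PXR, 5 lay above 0 and 3 below, where 8913 of all 17078 genes tested lay above 0. At an unadjusted p under 0.05 in edgeR, 0 were higher and 0 lower, beside 4.68% and 5.22% of all genes. For 8 genes, 0 is near those shares.

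Cyp2e1, which oxidises ethanol and acetone and has the highest level per kilobase of the 44, was at 4245, 1986, 3923, 4225 and 1606 CPM in sham livers and at 3949, 1599, 4684, 3923 and 3343 CPM in VAT removed livers. Sham livers 2 and 5 and VAT removed liver 2 were low, and the log2 difference was 0.13 ± 0.34. The same 3 libraries were low in Cyp2c37 (26.8, 38.2 and 36.1 CPM, against 86.6 to 264.4 CPM in the other 7) and in Cyp2c29 (123.5, 125.0 and 157.8 CPM, against 230.2 to 530.4 CPM). Summed over 10 other pericentral genes, Glul among them, these libraries had 1344, 1537 and 1452 CPM against 1817 to 3142 CPM in the other 7. Cyp1b1 was high in them, at 5.67, 5.02 and 5.02 CPM, and also in VAT removed liver 5 at 4.82 CPM, against at most 2.47 CPM elsewhere. Those 4 libraries also led in the sum of 5 fibroblast genes, with 427.6 to 554.4 CPM against 153.6 to 291.4 CPM in the other 6. Whether the makeup of the samples bears on these values was not tested.

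Sham liver 2 held the highest Cyp3a11 (1429 CPM against 645.2 to 761.3 CPM in the other sham livers) as well as the highest Cyp2a4, Cyp2a5 and Cyp2f2 of the sham group. Sham liver 5 had 1209 CPM summed over 7 interferon-induced genes against 106.1 to 304.8 CPM in the other 9 livers. All 7 of those genes were lower in VAT removed livers at an unadjusted p under 0.05 in edgeR, beside 5.22% of all genes. The part of the 7 genes in the P450 values was not tested. Summed over all 44 described genes, the P450 level was 10660, 9570, 10260, 10760 and 7148 CPM in sham livers and 10710, 6173, 11240, 11320 and 9530 CPM in VAT removed livers. The low totals of sham liver 5 and VAT removed liver 2 went with their low Cyp2e1.

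**Figure D3:**
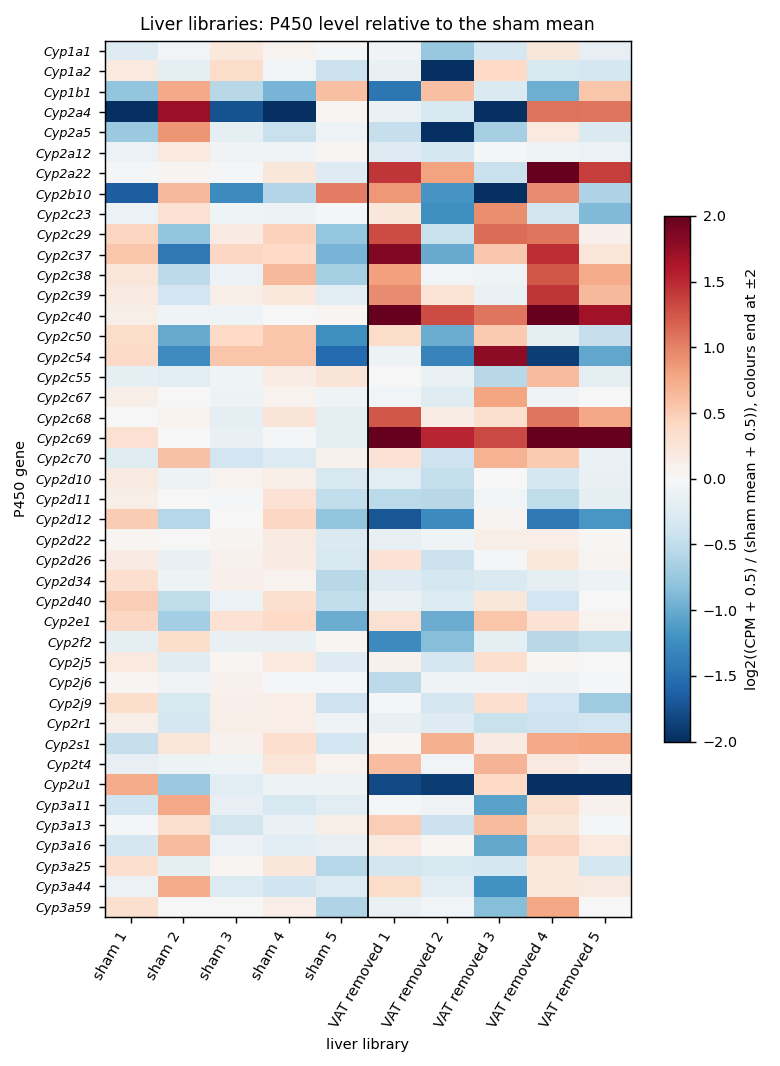
Level of the 43 described P450 genes tested in liver (rows) in the 10 liver libraries (columns), as log2 of CPM + 0.5 relative to the sham mean + 0.5, with colours ending at ±2. Sham 2, sham 5 and VAT removed 2 are low in Cyp2e1 and Cyp2c37, and VAT removed 3 departs from its group in Cyp2a22, Cyp2c54, Cyp2d12 and Cyp2u1.

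Genes that serve P450 enzymes were compared in the same fit. Of 16 genes of electron transfer and heme supply, 0 passed in edgeR after adjustment, with 2 higher and 1 lower at an unadjusted p under 0.05, beside 4.68% and 5.22% of all genes. Por, the P450 reductase gene, averaged 513.7 ± 160.0 CPM against 320.7 ± 125.8 CPM (log2 difference 0.68 ± 0.30), and Alas1, the first step of heme synthesis, averaged 870.9 ± 313.6 CPM against 551.7 ± 177.3 CPM (0.66 ± 0.29). Pgrmc1, a heme-binding partner of P450 enzymes, lay at -0.26 ± 0.09. Cyb5b, a cytochrome b5 gene, lay at -0.23 ± 0.14.

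Of 19 genes of transcription factors that act on P450 genes, 0 passed, and 3 were higher and 0 lower at an unadjusted p under 0.05, beside the same 4.68% and 5.22%. Onecut1, which encodes HNF6, averaged 36.1 ± 17.3 CPM against 13.9 ± 6.98 CPM in sham livers (log2 difference 1.37 ± 0.40). Cux2, a female-biased factor, lay at 5.24 ± 1.18, and Foxa2, a liver-enriched forkhead factor, at 0.33 ± 0.12. Nr1i2, the PXR gene, lay at 0.20 ± 0.10.

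Of 15 other targets of CAR, PXR and the aryl hydrocarbon receptor tested, 0 passed, and 0 were higher and 5 lower at an unadjusted p under 0.05, beside 4.68% and 5.22% of all genes. Ephx1, the microsomal epoxide hydrolase, averaged 289.1 ± 43.2 CPM against 405.5 ± 38.4 CPM (log2 difference -0.49 ± 0.11, edgeR adjusted p = 0.243). Gsta1 lay at -1.83 ± 0.52, Gsta2 at -1.11 ± 0.33 and Gstm1 at -0.74 ± 0.23, all glutathione transferase genes. The median over the list was -0.036, against 0.012 over all genes tested.

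In SAT, 15 of the 44 described genes passed the filter on low counts. The comparison of VAT removed with sham SAT called 0 of them in edgeR, higher or lower, and 0% of all 18530 genes tested. DESeq2 and limma-voom also called 0 of them. At an unadjusted p under 0.05, 2 were higher (Cyp2ab1 and Cyp2d11) and 2 lower (Cyp2s1 and Cyp2r1), beside 4.38% and 6.27% of all genes. Groups did not overlap for the 2 higher genes and for 0 in the lower direction, beside 0.831% and 0.61% of all genes.

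Cyp2ab1, which encodes a P450 of family 2, was at 1.69, 1.55, 1.70, 1.33 and 1.44 CPM in sham SAT and at 2.31, 1.93, 2.21, 2.12 and 2.44 CPM in VAT removed SAT. All 5 VAT removed libraries lay above all sham libraries. In log2 terms the difference was 0.51 ± 0.15 (edgeR adjusted p = 0.431, range over the alternatives 0.139 to 0.818). Cyp2d11 was at 0.297, 0.251, 0.212, 0.241 and 0.333 CPM in sham and at 0.770, 0.463, 0.403, 0.363 and 0.366 CPM in VAT removed SAT, from 44 and 78 counts in all. The groups did not overlap either, and the log2 difference was 0.82 ± 0.30 (adjusted p = 0.431). Without sham libraries 3 and 4 it was 0.69 ± 0.39, with an unadjusted edgeR p of 0.108.

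Cyp2s1 was at 0.830, 1.65, 4.55, 3.52 and 0.703 CPM in sham and at 0.924, 0.694, 0.522, 1.15 and 1.25 CPM in VAT removed SAT. The 2 high sham values were in libraries 3 and 4, which held the lymphocyte genes. All 6 of those genes were lower in VAT removed SAT at an unadjusted p under 0.05 in edgeR, beside 6.27% of all genes, and this rests on the same 2 sham libraries. Cd79a, a B cell gene, was at 97.5 and 107.2 CPM in those 2 libraries and at most at 1.95 CPM in the other 8. The log2 difference of Cyp2s1 was -1.31 ± 0.52 with all libraries and -0.24 without those 2. Cyp2r1 lay at -0.45 ± 0.19 with all libraries and at -0.26 without them.

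Cyp2e1, the most abundant of the family in SAT, was at 156.3, 623.9, 79.2, 57.7 and 389.8 CPM in sham and at 61.6, 71.8, 333.2, 51.7 and 35.9 CPM in VAT removed SAT. Values ran over a wide range in both groups, and the log2 difference was -1.24 ± 0.81 (edgeR adjusted p = 0.595). It was -0.62 without sham library 2, -1.81 without sham libraries 3 and 4 and -2.25 without VAT removed library 3. Summed over 4 skeletal muscle genes, SAT libraries ran from 10.2 to 1767 CPM in sham and from 26.8 to 21980 CPM in VAT removed SAT, highest in library 2 of each group. Their part in the P450 values was not tested.

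Cyp1b1 was at 37.6, 44.7, 34.4, 65.4 and 43.0 CPM in sham SAT and at 34.5, 44.1, 58.2, 29.5 and 39.9 CPM in VAT removed SAT (log2 difference -0.13 ± 0.21). Cyp2d22 was at 31.3, 33.1, 26.9, 27.8 and 52.5 CPM in sham SAT and at 43.8, 31.2, 41.9, 44.0 and 44.5 CPM in VAT removed SAT (0.26 ± 0.18, and 0.074 without sham libraries 3 and 4). The groups overlapped for both genes. Cyp2j6 averaged 19.6 ± 1.19 CPM against 19.3 ± 3.66 CPM and Cyp2u1 12.4 ± 1.24 CPM against 11.6 ± 4.42 CPM, with sham libraries 3 and 4 the lowest of Cyp2u1 at 7.15 and 6.90 CPM. Cyp2f2 ran from 4.81 to 9.88 CPM in sham and from 1.55 to 11.9 CPM in VAT removed SAT. The 15 genes had a median log2 difference of -0.13, with 7 above 0 and 8 below, against a median of -0.0020 over all genes tested.

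Of the genes around P450 in SAT, 0 of 16 of electron and heme supply passed after adjustment, with 0 at an unadjusted p under 0.05 in either direction, beside 4.38% of all genes higher and 6.27% lower. Of 14 transcription factor genes tested 0 passed, with 1 higher (Cux2, 0.52 ± 0.19) and 1 lower at an unadjusted p under 0.05, near those shares of all genes. Of 11 other receptor targets tested 0 passed, and 1 was higher without adjustment, Abcc2, an organic anion exporter, at 0.91 ± 0.28.

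**Figure D4:**
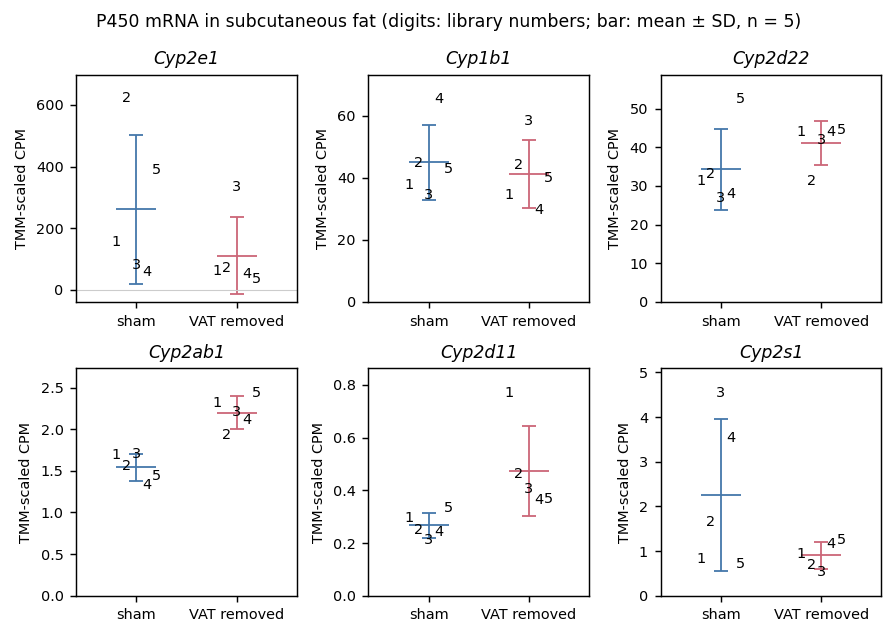
TMM-scaled CPM (vertical axes, from 0) of 6 P450 genes in sham and VAT removed subcutaneous fat, with digits for library numbers and bars for the mean ± SD of 5 libraries. Cyp2ab1 and Cyp2d11 do not overlap between the groups, Cyp2s1 is high in sham libraries 3 and 4, and Cyp2e1 spans 35.9 to 623.9 CPM.

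The comparison of the tissues was made between sham groups. CPM was scaled by TMM within each tissue, so CPM of liver and of SAT are not on a common scale. The log2 differences come from a fit that scaled both sham groups together, and they differ from what the printed CPM means would give. Of the 44 described genes, 40 were higher in liver in edgeR (adjusted p under 0.05), where 29.7% of all 18449 genes tested were, and 3 were lower (Cyp1b1, Cyp2ab1 and Cyp2s1), where 35.3% of all genes were. The median fitted log2 difference of liver minus SAT was 10.6 over the 44 and -0.11 over all genes. With the 14 genes at 0 counts in sham SAT set to the lower bound that 3 counts would give, the median over the 44 was 8.47. In sham liver 42 of the 44 averaged at least 1 CPM and 16 more than 100 CPM, and in sham SAT 11 averaged at least 1 CPM. The 5 sham SAT libraries together held 0 counts of 14 of the genes and 1 to 3 counts of 8 others.

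Among genes at 0 counts in sham SAT, Cyp3a11 averaged 849.3 CPM in sham liver, Cyp2a5 516.9 CPM and Cyp2c40 5.28 CPM. Set against the level that 3 counts over the 5 SAT libraries would give, these were at least 46180-fold, 28110-fold and 287.2-fold higher in liver. Such limits cover counting error only, and they set scaled liver CPM against unscaled SAT counts. The levels of Cyp2c40 and Cyp2c69 in VAT removed SAT, from 1 and 0 counts, were at or under that limit as well.

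Per kilobase of exon, Cyp2e1 was the highest P450 in sham liver at 1481 CPM per kb, followed by Cyp2d26 at 460.4, Cyp2f2 at 375.6, Cyp2d10 at 272.7, Cyp2a5 at 249.4 and Cyp2j5, a further epoxygenase, at 176.6 CPM per kb. In sham SAT, Cyp2e1 was again highest at 121.1 CPM per kb, followed by Cyp2d22 at 8.78, Cyp1b1 at 7.71, Cyp2j6 at 5.35, Cyp2f2 at 3.54, Cyp2j9 at 3.04 and Cyp2u1 at 2.21 CPM per kb. The first step in that order was far larger than those after it.

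Cyp1b1 averaged 45.0 ± 12.1 CPM in sham SAT and 3.14 ± 2.03 CPM in sham liver (log2 difference of liver minus SAT -3.30 ± 0.41, edgeR adjusted p = 2.89e-05). Cyp2ab1 averaged 1.54 ± 0.160 CPM against 0.0462 ± 0.0303 CPM (-4.48 ± 0.42, adjusted p = 2.89e-06). Cyp2s1 averaged 2.25 ± 1.71 CPM against 0.573 ± 0.261 CPM (-1.43 ± 0.56, adjusted p = 0.0429), and this call ended without SAT libraries 3 and 4, at -0.39 with an adjusted p of 0.474. It also ended without any 1 of sham livers 1, 2, 3 or 5 or of sham SAT 2, 3 or 4, at adjusted p up to 0.124 in edgeR. Cyp2t4 averaged 1.98 ± 0.408 CPM in SAT against 1.24 ± 0.202 CPM, with a fitted log2 difference of -0.14. With all libraries it was the only described gene not called. Cyp2j9, among the 40 genes called higher in liver, averaged 10.93 CPM in sham liver and 10.15 CPM in sham SAT. It was no longer called in edgeR without SAT libraries 3 and 4, at 0.36 ± 0.18 with an adjusted p of 0.110.

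Cyp2e1 was higher in liver at 4.15 ± 0.70 on the log2 scale, or 3.54 ± 0.55 without sham SAT libraries 3 and 4, Cyp2d22 at 3.36 ± 0.20, Cyp2r1 at 2.49 ± 0.18, Cyp2u1 at 2.27 ± 0.33 and Cyp2j6 at 2.18 ± 0.13, each called in edgeR. Glul, a pericentral gene used above beside Cyp2e1, was itself at 452.8 to 1248 CPM in sham SAT.

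**Figure D5:**
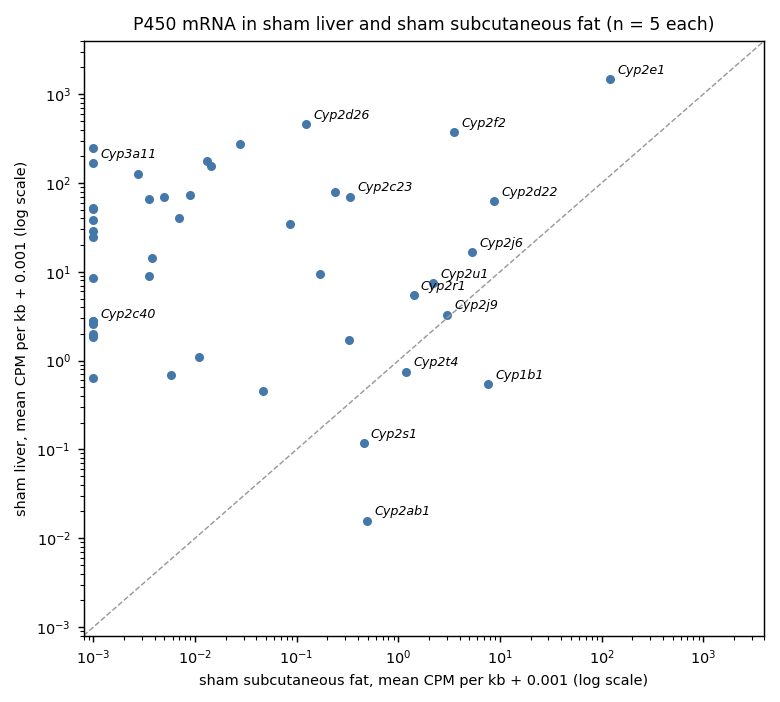
Mean level of the 44 described P450 genes in sham subcutaneous fat (horizontal axis) and sham liver (vertical axis), in CPM per kb + 0.001 on log scales, each point a gene. The dashed line marks equal CPM per kb, with CPM scaled within each tissue, so it is not a line of equal fitted levels. Most genes lie far above the line, Cyp2e1 leads in both tissues, and Cyp1b1, Cyp2ab1, Cyp2s1 and Cyp2t4 lie below the line.

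The difference between the surgery effects of the tissues was tested in a fit of all 20 libraries that treats them as separate mice. Of the 44 described genes 0 were called by edgeR in either direction, where 0% of all 19954 genes tested were, and DESeq2 and limma-voom called 0 of them. At an unadjusted p under 0.05, 2 had a higher difference in SAT (Cyp2d11 and Cyp2d10) and 1 a lower one (Cyp2s1), beside 3.61% and 6.51% of all genes. Cyp2d11 shares 26.9% of its stretches of 50 bases with Cyp2d10, and Cyp2d10 25.9% with Cyp2d11. The 2 genes are therefore not independent measurements. For Cyp2d11 the SAT difference exceeded that in liver by 1.19 ± 0.30 (adjusted p = 0.288). For Cyp2d10, from 7 counts in sham and 21 in VAT removed SAT, the value was 1.71 ± 0.53 (0.340). Without sham SAT libraries 3 and 4, Cyp2d10 lay at 1.22 ± 0.52 and Cyp2d11 at 1.04 ± 0.33. For Cyp2s1 the value was -2.20 ± 0.68 (0.340), or -1.14 without those 2 libraries. Cyp2r1 lay below the sham mean in all 5 VAT removed libraries of both tissues, and its difference in SAT minus that in liver was -0.12 ± 0.21. In SAT that mean rests partly on sham libraries 3 and 4, which held its highest values at 3.85 and 3.25 CPM. The share of all genes below the sham mean in this way in both tissues was not counted.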

How the data were processed

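Per the labels, ribosomal RNA was removed from total RNA (RiboErase) before sequencing. Per the submitters' processing notes, the authors used bcl2fastq, STAR 2.5.1a, featureCounts 1.46 of Subread and GRCm38. Their gene models, strand option and rule for multi-mapping reads were not given in the sources used here. The authors deposited raw counts per gene for 20 libraries. Of the 40757 entries, 317 were exact repeats and were removed. Where 1 symbol stood for entries with unequal counts (117 symbols), each entry stayed separate.

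Liver, SAT, sham tissues and all libraries were fitted in edgeR 4.0.16 (R 4.3.3) with filterByExpr, TMM scaling and the robust quasi-likelihood F-test. P-values were adjusted by Benjamini and Hochberg over all genes tested, with a threshold of 0.05, and the scripts were tested on simulated data. SE comes from the F statistic, and SD is over the 5 libraries of a group. The SD and p measure the spread between these libraries, for which the labels do not state separate animals. Counting error is small at these depths except for genes with few counts. Printed CPM was scaled by TMM within liver and within SAT separately, and levels per kb divide it by exon lengths of GENCODE M21. Coordinates are of GRCm38 and promoter windows of RefSeq on GRCm38.p6, with 38 of 44 genes matched by symbol.

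Groups came from the sample titles. The labels name no batch. The members and lists were chosen with earlier results of these data known. Genes were named by a rule: a fixed set of 15, the members with the smallest p in each fit (8 in liver, 4 in SAT, 3 for the difference between tissues), the most abundant (5 in sham liver, 4 in sham SAT) and up to 4 of each other list. Those given only to show a library, a relative or the order of levels, such as Cyp2c67, Cyp2c37, Cyp2a12 and Cyp2j5, were chosen after their values were seen. Alternatives were DESeq2 1.42.0, limma-voom (limma 3.58.1), RLE scaling, no filter, a filter of 1 CPM in 5 libraries, 1 fit of all libraries, a block for the library number, and fits without single libraries or without sham SAT libraries 3 and 4.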

Additional observations from a re-analysis of the deposited data

Results flagged for a closer look

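In 9 of 64 groups of named P450 genes searched, the most extreme of the 5 libraries was separated from the rest by more than 0.71 of the group's range. Over all genes, 6.09% of the 59174 groups that averaged 1 CPM or more met this, and chance gives about 1 in 20 for independent normal values. The 9 are not independent, since named genes include relatives that share reads, such as Cyp2a4 and Cyp2a5, and several lie in the same library. In sham liver 2, Cyp2a4 was at 289.6 CPM, Cyp2a5 at 956.5 CPM and Cyp3a11 at 1429 CPM, each far above the other sham livers. In VAT removed liver 3, Cyp2u1 was at 51.1 CPM and Cyp2d12 at 8.02 CPM, above the rest of the group. Cyp2j6 was low in VAT removed liver 1, at 41.9 CPM. In SAT, Cyp2d22 was high in sham library 5 (52.5 CPM) and low in VAT removed library 2 (31.2 CPM), and Cyp2e1 was high in VAT removed library 3 (333.2 CPM).

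For Cyp2d11 and Cyp2s1 all 5 VAT removed libraries lay on one side of the sham mean in liver and on the other side in SAT, as did 3.16% of the 15978 genes tested in both tissues. Cyp2d11 was below in liver and above in SAT, with a difference of 1.19 on the log2 scale between the tissues, and Cyp2s1 was above in liver and below in SAT, with a difference of -2.20. The SAT side of Cyp2s1 rests on sham libraries 3 and 4, at 4.55 and 3.52 CPM, and without them the difference was -1.14 (adjusted p = 0.759). With all libraries neither passed the edgeR test of the difference, at adjusted p of 0.288 and 0.340.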

How the results depend on the processing

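In liver, where edgeR called 0 genes and 0 P450 genes, DESeq2 called 199 genes and 4 P450 genes, limma-voom, no filter and the filter of 1 CPM in 5 libraries 3 genes each, and the fit of all libraries 27 genes and 1 P450 gene (Cyp2c40). Without single libraries 0 to 53 genes and 0 to 3 P450 genes were called, most without VAT removed liver 3. In SAT, DESeq2 called 200 genes, and 0 to 1 were called without single libraries. For the difference between tissues DESeq2 called 129, and 0 to 3 were called without single libraries. The causes were not tested. The labels do not pair equal library numbers, whose deviations from the group means correlated at -0.21 to 0.31, and own numbers correlated best for 4 of 5 libraries between VAT removed liver and VAT removed SAT, for 3 of 5 between sham and VAT removed liver, for 1 of 5 between sham and VAT removed SAT, and for 0 of 5 between sham liver and sham SAT. With the library number as a replicate block, 0 genes were called in liver, SAT and the difference between tissues, and 10985 between the tissues against 11991 without it, with 42 and 43 P450 genes.

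Differences near 0 changed sign when single libraries were left out, with ranges in liver of -0.40 to 0.21 for Cyp1b1, -0.0097 to 1.52 for Cyp2a4, -0.43 to 0.49 for Cyp2b10, -0.030 to 0.14 for Cyp2d26, -0.041 to 0.31 for Cyp2e1 and -0.21 to 0.18 for Cyp3a11. In SAT the ranges were -0.29 to 0.040 for Cyp1b1, -0.076 to 0.097 for Cyp2j6 and -0.048 to 0.26 for Cyp2u1. Without sham SAT libraries 3 and 4 together, Cyp2j6 lay at -0.15 and Cyp2u1 at -0.24. The ranges of Cyp2c40 and Cyp2c69 in liver were 2.24 to 2.81 and 3.86 to 4.82. Depth limits the SAT values of members with few counts.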
